A study of Mus musculus with 4 samples.

Results

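The phagocyte NADPH oxidase and the enzymes that clear its products were examined in 4 bulk RNA-seq libraries of mouse brain microglia. Members were taken by gene symbol from the count tables, 9 genes of 49993 in all. They comprised 5 genes of the oxidase (Cybb, Cyba, Ncf1, Ncf4 and Rac2) and 4 antioxidant genes (Sod1, Sod2, Gpx1 and Txnrd1). All 9 passed the filter on low counts that left 21439 genes to be tested, with between 246 and 6092 reads per member and library.

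The cells were CD11b+ microglia that had been sorted magnetically from brain at an age of 10 months, and the libraries were made from total RNA depleted of ribosomal RNA. CD11b is also carried by neutrophils and monocytes. Of the 4 libraries, 2 came from mice of genotype APP/PS1+ asrij+/+, called AD, and 2 from mice of genotype APP/PS1+ asrij-/-, called AD/KO. Both groups thus carried APP/PS1, the transgenes of an amyloid model of Alzheimer's disease, and no library without APP/PS1 was analysed here. Asrij, the mouse gene Ociad1, was deleted constitutively by design, in other cells as well as in microglia. The study asked what Asrij does in microglial activation. The labels do not say whether the 2 libraries of a group came from separate animals, and p-values measure the spread between these libraries. Xist, the RNA of the inactive X of female cells, had 6 reads in AD replicate 1 and 1391 in AD replicate 2, so that these 2 did not come from 1 pool of cells. For the AD/KO libraries, with 15 and 3 reads, the spread may be technical.

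The phagocyte oxidase moves electrons from NADPH across a membrane onto oxygen and so makes superoxide. Its core is a pair of membrane proteins, the products of Cybb and Cyba, which are joined on activation by cytosolic subunits (the products of Ncf1 and Ncf4 among them) and by a Rac GTPase. In the brain the enzyme is known chiefly from microglia and from blood-borne myeloid cells. Superoxide is turned into hydrogen peroxide by superoxide dismutases, and peroxide is removed by glutathione peroxidases, peroxiredoxins and catalase, which most cell types express.

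Library totals ran from 13102622 to 19810076 counts, so that 10 counts stood for less than 1 CPM. CPM stands for counts per 1000000 reads, here on library sizes scaled by edgeR's TMM method. The deleted gene Ociad1 still had 691 and 1032 reads in the AD libraries against 746 and 592 in the AD/KO libraries, a log2 fold change of -0.68 (SE 0.29), so that its transcript was not absent. AD and AD/KO are therefore used throughout as the names on the labels only. The libraries differed in their markers of cell type. The 15 microglia markers summed to 22611 and 15246 CPM in AD replicates 1 and 2 and to 22333 and 6560 CPM in AD/KO replicates 1 and 2, and 0 of the 15 was at 0 in any library. In the same order, 12 neuron markers summed to 623.2, 1929, 1550.1 and 4768 CPM, and 9 astrocyte markers to 1961, 4650.4, 4828 and 12331 CPM. The 13 neutrophil markers summed to 408, 5155, 549 and 618 CPM. AD/KO replicate 2 thus held the lowest microglia and the highest neuron and astrocyte levels, and AD replicate 2 the highest neutrophil level. In bulk libraries, fewer cells of a type and less RNA per cell cannot be told apart.

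Sequences next to the start sites of 4 members are shown, because Cybb and Cyba encode the 2 proteins of the membrane core yet followed different patterns over the libraries, while Sod1 and Sod2 lay on the other side of the comparison. RefSeq start-site windows on GRCm38.p6 matched 7 of the 9 members, with 9 windows in all. Ncf4 and Rac2 were not matched. Each run is the 250 bases before a start site, 5′ to 3′ on the strand of the gene. Capitals mark GAGGAA, a core bound by PU.1, the factor of myeloid cells, and GGGCGG, the GC box bound by Sp1-type factors, on either strand. Matches can share bases, and the 4 GC boxes of Sod1 form 2 overlapping pairs. The Cybb window lies inside the annotated gene, at the 1 start site that the table lists for it.
Cybb, chrX:9469325-9469574, minus strand: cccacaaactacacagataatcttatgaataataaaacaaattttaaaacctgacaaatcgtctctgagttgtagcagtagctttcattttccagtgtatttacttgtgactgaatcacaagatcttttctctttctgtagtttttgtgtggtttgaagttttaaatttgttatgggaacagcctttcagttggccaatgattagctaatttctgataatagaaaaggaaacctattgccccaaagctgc
Cyba, chr8:122432941-122433190, minus strand: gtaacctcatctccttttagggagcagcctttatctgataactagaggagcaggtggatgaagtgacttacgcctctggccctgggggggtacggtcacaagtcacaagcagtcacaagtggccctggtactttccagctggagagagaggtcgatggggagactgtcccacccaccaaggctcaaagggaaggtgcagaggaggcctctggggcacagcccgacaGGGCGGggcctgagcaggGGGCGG
Sod1, chr16:90220512-90220761, plus strand: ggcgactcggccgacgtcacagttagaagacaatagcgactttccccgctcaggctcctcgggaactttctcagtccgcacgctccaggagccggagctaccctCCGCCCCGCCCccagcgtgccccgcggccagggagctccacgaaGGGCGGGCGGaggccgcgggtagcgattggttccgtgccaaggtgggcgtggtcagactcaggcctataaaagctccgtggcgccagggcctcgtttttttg
Sod2, chr17:13007589-13007838, plus strand: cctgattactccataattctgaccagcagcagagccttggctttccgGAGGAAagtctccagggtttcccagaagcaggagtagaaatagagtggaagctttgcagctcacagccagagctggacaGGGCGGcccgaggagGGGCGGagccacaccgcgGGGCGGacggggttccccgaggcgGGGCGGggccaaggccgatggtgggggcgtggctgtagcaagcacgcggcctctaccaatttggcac

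The Cybb window held no exact match to either motif before the start site, and GAGGAA lay on the reverse strand at base 10 after it. Other forms of a PU.1 site were not sought. The Cyba window held 2 GC boxes, at bases -24 and -6, and those of Sod1 and Sod2 held 4 each. GAGGAA was found before the start site in 1 of these 4 windows, that of Sod2, at base -203. Over all 32851 RefSeq windows, GAGGAA was found in 23.3% of the 250-base stretches and GGGCGG in 32.7%. Over windows with the 50 bases after the start site added, the shares were 28.3% and 35.7%. A match is a description of letters and not evidence of binding.

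Across all genes, the quasi-likelihood test of edgeR, adjusted by Benjamini-Hochberg, called 0 of 21439 at an adjusted p under 0.05 (0% called), and 0 of the 9 members. At an unadjusted p under 0.05 it gave 1072 genes, 5% of those tested, which is the share that this threshold passes where no gene differs. DESeq2's own test called 91 at the adjusted threshold, 0.462% of the genes that it kept. All 5 oxidase members had a lower mean in AD/KO, with a median log2 fold change of -0.78 against -0.05 over all genes tested. Of all genes tested, 52.8% had a log2 fold change below 0, the background for each count of directions given below. Of the antioxidant members, Sod1 and Sod2 had a higher mean and Gpx1 and Txnrd1 a lower one, with a median of 0.29. The groups did not overlap in 6 of the 9 members, against 42% of all genes. AD/KO was the lower group in 4 of them (Cybb, Ncf4, Rac2 and Txnrd1), against 21.7% of all genes, and the higher group in 2 (Sod1 and Sod2), against 20.3%. A fit with the replicate number as a block, which the labels do not call for, gave 3 of the 9 members at the adjusted threshold (Cybb, Sod1 and Sod2) and 20.2% of all genes.

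**Figure D1:**
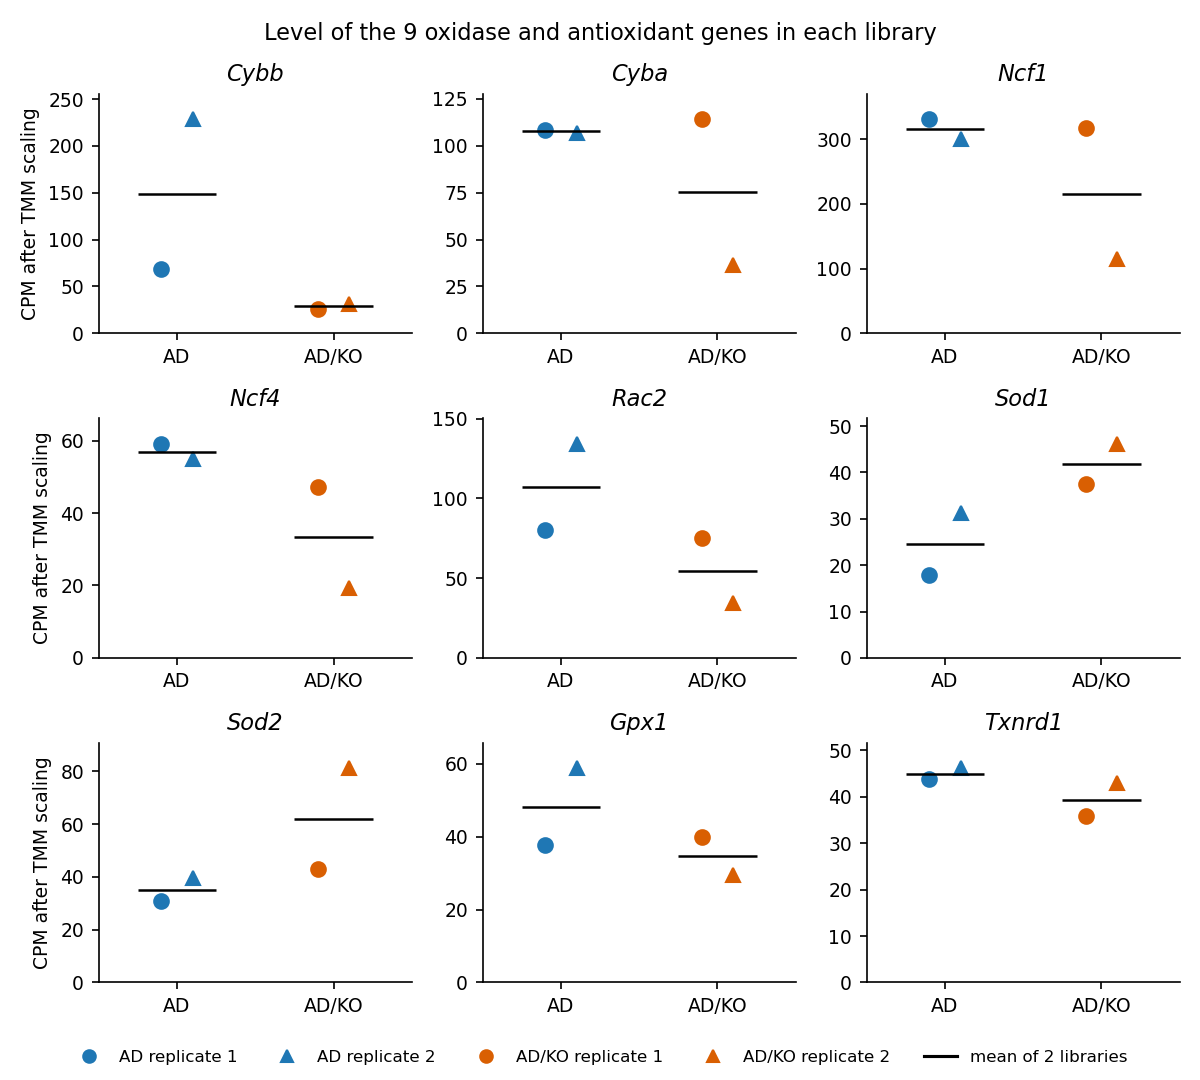
Level of each of the 9 members in CPM after TMM scaling (y axes start at 0 and differ between panels), with 1 point per library and a line at the mean of the 2 libraries of a group. Cybb stood at 68.3 and 229 CPM in AD and at 26.1 and 31.7 CPM in AD/KO, while in Cyba, Ncf1 and Ncf4 AD/KO replicate 2 alone stood well below the rest.

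Cybb (gene ID 13058, chromosome X, 9435252 to 9487766 on GRCm38.p6, as for all members, minus strand) encodes the catalytic subunit, through which the electrons pass. Its levels were 68.3 and 229 CPM in AD replicates 1 and 2, against 26.1 and 31.7 CPM in the 2 AD/KO libraries. Both AD/KO libraries were below both AD libraries, and the AD libraries were far apart, AD replicate 2 being 3.35 times AD replicate 1. AD averaged 148 ± 113 CPM and AD/KO 28.9 ± 4.02 CPM (SD, n = 2 each). The log2 fold change was -2.36 (SE 0.64), with an unadjusted p of 0.0148 and an adjusted p of 0.680 in edgeR's quasi-likelihood test (Benjamini-Hochberg). Cybb was the 1 lower member at an unadjusted p under 0.05, a level reached in this direction by 2.3% of all genes. With DESeq2 as the test, Cybb passed (adjusted p of 0.0479), as did 0.462% of the genes that test kept.

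The Cybb difference was smaller without AD replicate 2. When that library was left out, the log2 fold change was -1.18, with an adjusted p of 0.443 in edgeR's quasi-likelihood test (Benjamini-Hochberg). Without AD replicate 1 it was -2.996, with an adjusted p of 0.0210 by the same test, where 0.208% of genes were called. Both fits held only 1 AD library, so that their spread came from the AD/KO libraries alone. Their p-values thus do not measure variation between AD libraries, and no conclusion is drawn from them. In the fit without AD replicate 1, AD replicate 2 stood alone for AD. Neutrophils, which carry the oxidase in abundance, were marked most strongly in AD replicate 2, all 13 of their markers being highest there. The neutrophil list held 5155 CPM in AD replicate 2 against 408 to 618 CPM elsewhere, and its part in the Cybb level was not tested. Monocyte markers, 6 in all, summed to 119 and 204 CPM in AD and to 52.3 and 65.5 CPM in AD/KO. These sums had the order of the libraries in Cybb, but Vcan alone held 35.4 CPM in AD/KO replicate 2. Ifitm6 and Vcan were lowest in AD/KO replicate 1, as was Cybb. Ccr2, Ly6c2, Plac8 and F13a1 were lowest in AD/KO replicate 2, unlike Cybb. AD/KO was the lower group, without overlap, in 5 of the 6, against 21.7% of all genes. The 6 markers of border macrophages, which also carry CD11b, summed to 93.7 and 60.9 CPM in AD and to 54.3 and 44.9 CPM in AD/KO, and AD/KO was the lower group without overlap in 4 of them. The part of either list was not tested. Cybb is X-linked, and AD replicate 2 was also the library with the Xist reads, whose part was not tested.

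Between the libraries numbered 1, which had nearly equal microglia levels (22611 and 22333 CPM) and low neutrophil levels (408 and 549 CPM) but different monocyte levels (119 and 52.3 CPM) and border macrophage levels (93.7 and 54.3 CPM), Cybb was also lower in AD/KO. Its level in AD/KO replicate 1 was 0.382 times that in AD replicate 1 (95% exact interval 0.342 to 0.426, for counting error only). Among the 4 other oxidase members the ratio of these libraries ran from 0.797 for Ncf4 to 1.06 for Cyba. This pair was singled out after its values were seen, has 1 library a group and so has no test, and the labels do not pair these libraries. Between the libraries numbered 2, Cybb was at 0.139 times its AD level (0.127 to 0.152).

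Cyba (gene ID 13057, chromosome 8, 122424771 to 122432940, minus strand) encodes the smaller membrane subunit, which docks the cytosolic ones. It was at 108 and 107 CPM in AD replicates 1 and 2, 114 CPM in AD/KO replicate 1 and 36.4 CPM in AD/KO replicate 2. The groups overlapped: AD/KO replicate 1 was the highest of the 4 and AD/KO replicate 2 the lowest. AD averaged 108 ± 0.852 CPM and AD/KO 75.3 ± 55.0 CPM (SD, n = 2 each), a log2 fold change of -0.52 (SE 0.58). It did not pass the threshold (adjusted p of 0.750, edgeR quasi-likelihood, Benjamini-Hochberg), and without AD/KO replicate 2 the value was 0.096.

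Ncf1 (gene ID 17969, chromosome 5, 134220053 to 134229628, minus strand) encodes the organizer subunit, whose phosphorylation starts assembly. It had the most reads of any member, at 331 and 300.1 CPM in AD and 318 and 114 CPM in AD/KO. As with Cyba, AD/KO replicate 1 lay at the AD level and AD/KO replicate 2 far below it. AD averaged 315 ± 21.7 CPM and AD/KO 216 ± 144 CPM (SD, n = 2 each), a log2 fold change of -0.55 (SE 0.57) with an adjusted p of 0.733 in edgeR's quasi-likelihood test (Benjamini-Hochberg). Without AD/KO replicate 2 the value was 0.020. Exons of Ncf1 overlap those of Gtf2ird2 on the other strand over 408 bases (11.1% of its exons), and Gtf2ird2 had 511 to 856 reads. Whether strand was used in counting is not given in the sources used here, so that a part of the Ncf1 count is uncertain.

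Ncf4 (gene ID 17972, chromosome 15, 78244164 to 78262582, plus strand) encodes the subunit that binds a phosphoinositide on phagosomes. It was at 59.2 and 54.8 CPM in AD and 47.1 and 19.4 CPM in AD/KO. The groups did not overlap, but AD/KO replicate 1 was nearer to the AD libraries than to AD/KO replicate 2. AD averaged 57.0 ± 3.06 CPM and AD/KO 33.3 ± 19.6 CPM (SD, n = 2 each), a log2 fold change of -0.78 (SE 0.48), which did not pass the threshold (adjusted p of 0.680, edgeR quasi-likelihood, Benjamini-Hochberg). Without AD/KO replicate 2 the value was -0.26.

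Rac2 (gene ID 19354, chromosome 15, 78559169 to 78572783, minus strand) encodes the Rac GTPase of blood cells, which switches the assembled enzyme on. It was at 80.5 and 134 CPM in AD and 74.97 and 34.6 CPM in AD/KO. Both AD/KO libraries were below both AD libraries, AD replicate 2 was the highest, and AD replicate 1 and AD/KO replicate 1 were close together. AD averaged 107 ± 38.1 CPM and AD/KO 54.8 ± 28.5 CPM (SD, n = 2 each), a log2 fold change of -0.97 (SE 0.50), which did not pass the threshold (adjusted p of 0.680, edgeR quasi-likelihood, Benjamini-Hochberg). Leaving out AD replicate 2 gave -0.49 and leaving out AD/KO replicate 2 gave -0.51.

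**Figure D2:**
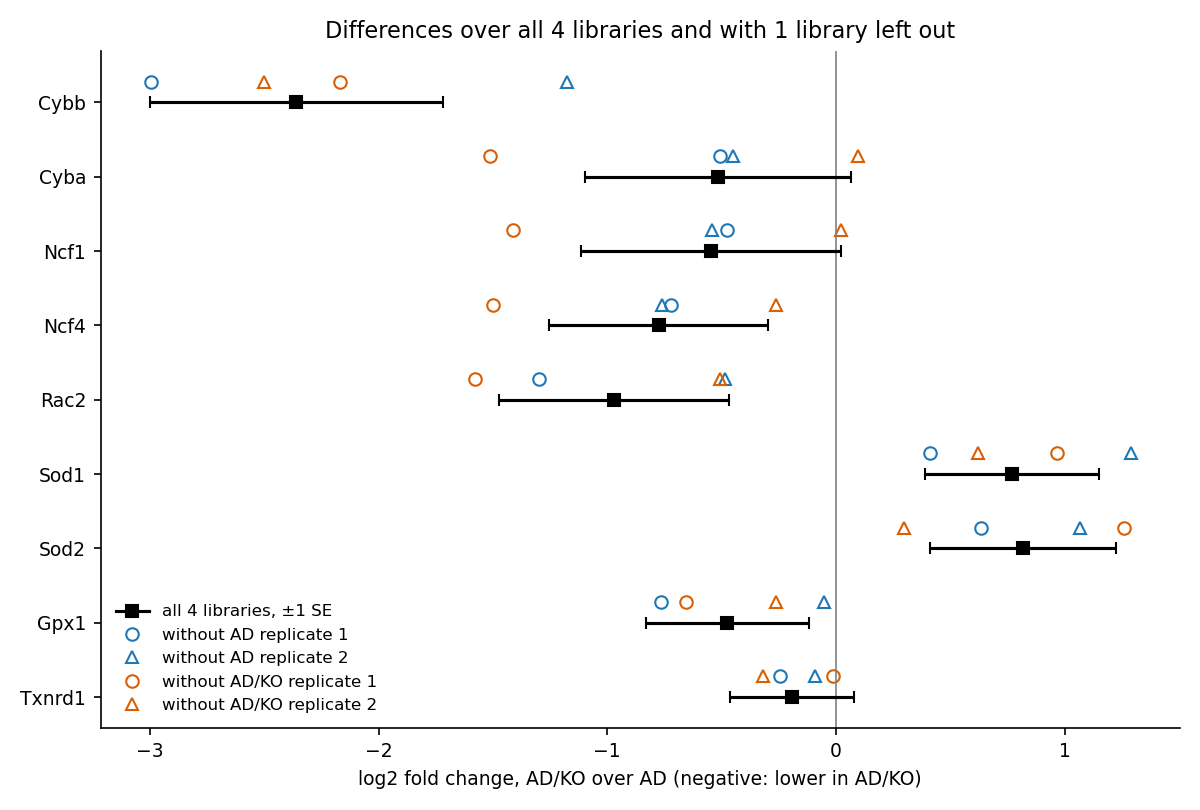
Log2 fold change of each member, AD/KO over AD (x axis): black squares show the edgeR fit to all 4 libraries with 1 SE, and open symbols the fits with 1 library left out. For Cyba, Ncf1 and Ncf4 the values without AD/KO replicate 1 lay between -1.51 and -1.41 and those without AD/KO replicate 2 between -0.26 and 0.096, while Cybb stayed at -1.18 or below in every fit.

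The oxidase members did not share 1 pattern. Cyba and Ncf1 had nearly the same shape over the libraries, with a root mean square distance of 0.0738 between their centred log2 CPM profiles, whereas Cybb was 1.14 from each. Per kb of exon, Cybb was at 0.0988 and 0.334 times the level of Cyba in AD replicates 1 and 2 and at 0.0357 and 0.137 times in AD/KO replicates 1 and 2. Within each pair of same-numbered libraries the ratio was lower in AD/KO, but over the groups it overlapped. Summed over the 5 members, the oxidase held 338 and 375 CPM per kb in AD and 323 and 119 CPM per kb in AD/KO. Cybb made up 4.25% and 12.8% of these sums in AD and 1.70% and 5.63% in AD/KO.

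Set against the summed microglia markers of the same library, with AD replicate 1 taken as 1, Cyba stood at 1.47 in the other AD library and at 1.07 and 1.16 in AD/KO replicates 1 and 2. Ncf1 stood at 1.35, 0.972 and 1.19, and Ncf4 at 1.37, 0.807 and 1.13, so that AD/KO replicate 2 lay inside the AD range for all 3 of these genes. Cybb stood at 4.96, 0.386 and 1.60, and on this scale its groups overlapped too. When the edgeR fit itself was scaled to the microglia list, the log2 fold changes were -0.06 for Cyba, -0.03 for Ncf1, -0.20 for Ncf4, -0.42 for Rac2 and -1.48 for Cybb, against a median of 0.84 for all genes tested. None of these passed the threshold, the smallest adjusted p of the 5 being 0.760 for Cybb (edgeR quasi-likelihood, Benjamini-Hochberg).

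Sod1 (gene ID 20655, chromosome 16, 90220762 to 90226333, plus strand) encodes the copper-zinc superoxide dismutase of the cytosol. Its levels were 17.9 and 31.2 CPM in AD replicates 1 and 2 and 37.4 and 46.2 CPM in the AD/KO libraries. Both AD/KO libraries were above both AD libraries, and AD replicate 1 stood lowest. AD averaged 24.5 ± 9.41 CPM and AD/KO 41.8 ± 6.19 CPM (SD, n = 2 each), a log2 fold change of 0.77 (SE 0.38), which did not pass the threshold (adjusted p of 0.680, edgeR quasi-likelihood, Benjamini-Hochberg). Without AD replicate 1 it was 0.41 and without AD replicate 2 it was 1.29. The processed pseudogene Gm8566 matches 465 bases of the Sod1 transcript at 97.8% identity and had 14 to 56 reads.

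Sod2 (gene ID 20656, chromosome 17, 13007839 to 13018119, plus strand) encodes the manganese superoxide dismutase of mitochondria. It was at 30.8 and 39.4 CPM in AD and 42.9 and 81.1 CPM in AD/KO. The groups did not overlap, although AD/KO replicate 1 was only 1.09 times AD replicate 2. AD averaged 35.1 ± 6.05 CPM and AD/KO 62.0 ± 27.0 CPM (SD, n = 2 each), a log2 fold change of 0.82 (SE 0.41), which did not pass the threshold (adjusted p of 0.680, edgeR quasi-likelihood, Benjamini-Hochberg). Without AD/KO replicate 2 it was 0.30. A stretch of 3110 bases of a Sod2 transcript matches Rps6ka2 at 98.3% identity, and one of 3108 bases matches the non-coding RNA AC166110.4 at 98.5%, so that the Sod2 counts are uncertain. Rps6ka2 had 216, 484, 513 and 1136 reads in AD replicates 1 and 2 and AD/KO replicates 1 and 2.

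Beside the 2 dismutases, the neuron and astrocyte lists were also lowest in AD replicate 1 and highest in AD/KO replicate 2. Both AD/KO libraries were above both AD libraries in 8 of the 9 astrocyte markers and 2 of the 12 neuron markers, against 20.3% of all genes. The 8 oligodendrocyte markers summed to 1650 and 2648 CPM in AD and to 3950 and 8629 CPM in AD/KO, with 4 of the 8 so placed. Neurons and astrocytes also express both dismutases, and the part of any of these lists in the dismutase levels was not tested.

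**Figure D3:**
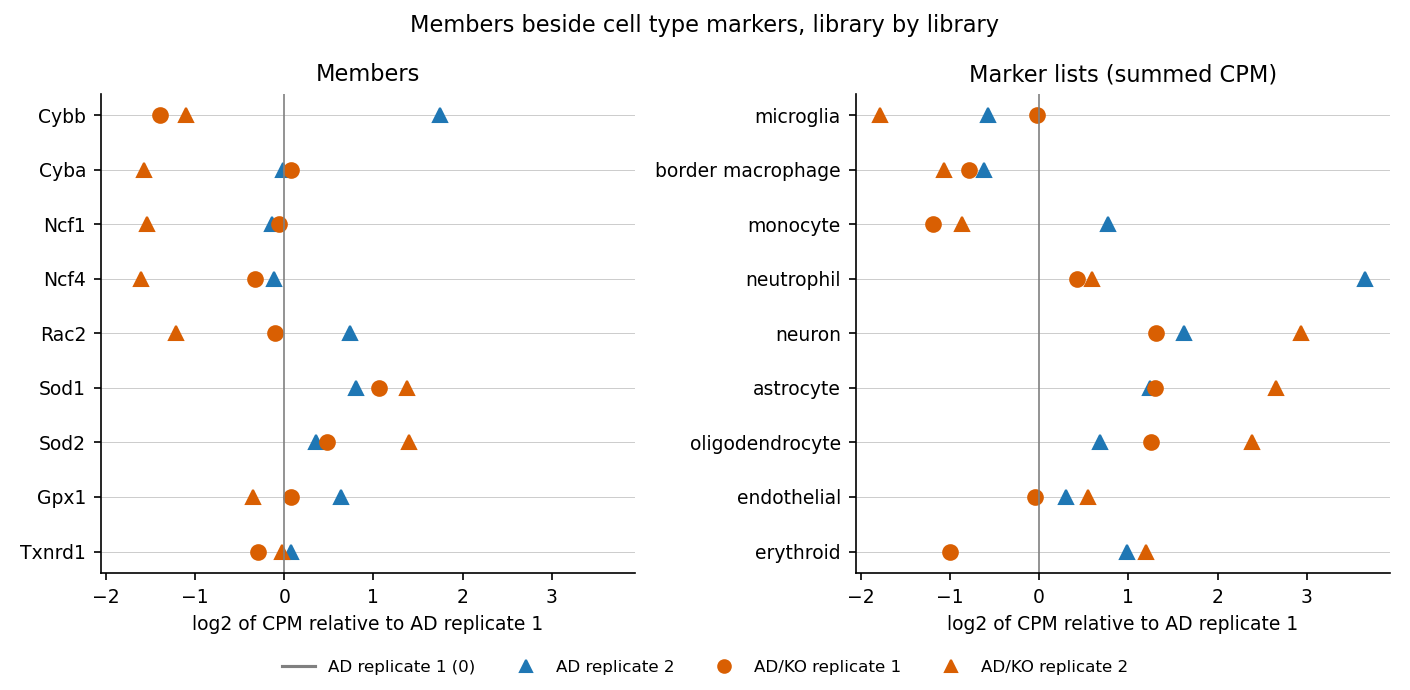
Log2 of the CPM in each library relative to AD replicate 1 (x axes), for the 9 members (left) and for the summed CPM of 9 marker lists (right), with 1 symbol per library. AD replicate 2 stands apart for Cybb and for the neutrophil list, and AD/KO replicate 2 stands lowest for Cyba, Ncf1, Ncf4 and the microglia list.

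Gpx1 (gene ID 14775, chromosome 9, 108339080 to 108340342, plus strand) encodes the glutathione peroxidase of the cytosol. Txnrd1 (gene ID 50493, chromosome 10, 82833951 to 82897724, plus strand) encodes the cytosolic reductase that keeps thioredoxin reduced. Both are selenoproteins: a TGA codon inside the reading frame is read as selenocysteine rather than as a stop. The codon is shown with its coding context on GRCm38, from the GENCODE M21 transcripts, the TGA in capitals, since it is what these 2 members share. That of Gpx1 lies in exon 1 of 2 of its transcript (chr9:108339451-108339453) and that of Txnrd1 in exon 14 of 14 (chr10:82896037-82896039), where 1 codon separates it from the stop.
Gpx1: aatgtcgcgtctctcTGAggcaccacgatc
Txnrd1: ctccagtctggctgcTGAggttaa

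Gpx1 was at 37.7 and 58.8 CPM in AD and 39.9 and 29.5 CPM in AD/KO. The groups overlapped, with AD replicate 2 highest and AD/KO replicate 2 lowest. AD averaged 48.3 ± 14.9 CPM and AD/KO 34.7 ± 7.36 CPM (SD, n = 2 each), a log2 fold change of -0.47 (SE 0.36) with an adjusted p of 0.685 in edgeR's quasi-likelihood test (Benjamini-Hochberg). Without AD replicate 2 it was -0.05, and with scaling to the microglia list it was 0.28.

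Txnrd1 varied least of the 9 members over the 4 libraries, at 43.8 and 46.1 CPM in AD and 35.8 and 42.9 CPM in AD/KO. Both AD/KO libraries were just below both AD libraries. AD averaged 44.9 ± 1.65 CPM and AD/KO 39.3 ± 5.03 CPM (SD, n = 2 each), a log2 fold change of -0.19 (SE 0.27) with an adjusted p of 0.790 in edgeR's quasi-likelihood test (Benjamini-Hochberg). Without AD/KO replicate 1 it was -0.01, and with scaling to the microglia list it was 0.81. Eid3 lies within the Txnrd1 gene on the same strand, shares 0 exon bases with it and had 87 to 110 reads.

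The selenoprotein genes as a class were looked at after the values of these 2 were seen. GENCODE M21 marks selenocysteine codons in 24 genes, of which 20 were tested and 0 passed, with 9 log2 fold changes above 0, 11 below and a median of -0.08. The largest among them were 1.57 for Selenow and 1.56 for Dio2, the enzyme that activates thyroid hormone. Over the libraries both had the order that the astrocyte and oligodendrocyte lists share. The part of either list was not tested, and the share of all genes with this order was not counted. The genes that build or carry selenocysteine, 7 in all and all tested, had a median of -0.18 and a range from -0.25 for Sepsecs, which makes it on its transfer RNA, to 0.06 for Eefsec, its elongation factor. The 2 with the highest level per kb were Selenop, the selenium transport protein, at 630.4 ± 38.9 CPM for AD and 539.5 ± 169 CPM for AD/KO (SD, n = 2 each), and Secisbp2, which binds the recoding element of the messenger.

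Levels were compared between genes per kb of exon, since longer transcripts collect more reads. In AD, Cyba stood highest at 145 CPM per kb, followed by Ncf1 at 106, and the libraries of these 2 genes did not overlap with each other or with any other member. Gpx1 (45.0), Ncf4 (38.9), Sod1 (38.2), Rac2 (35.4) and Cybb (31.2) formed an overlapping middle, and Txnrd1 (11.03) and Sod2 (5.99) lay below it. The place of Sod2 is uncertain in both groups. A stretch of 3110 bases of its transcript matches Rps6ka2, and how multi-mapping reads were treated is not given. In AD/KO the order was Cyba (101), Ncf1 (72.8), Sod1 (65.2), Gpx1 (32.4), Ncf4 (22.7), Rac2 (18.0), Sod2 (10.6), Txnrd1 (9.65) and Cybb (6.08). The AD/KO libraries of the first 3 overlapped, as did those of each neighbouring pair from Gpx1 to Txnrd1, whereas Cybb lay below Txnrd1 in both. In AD/KO replicate 2, Sod1 (72.0 CPM per kb) was above Cyba (48.9), the reverse of the other 3 libraries.

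**Figure D4:**
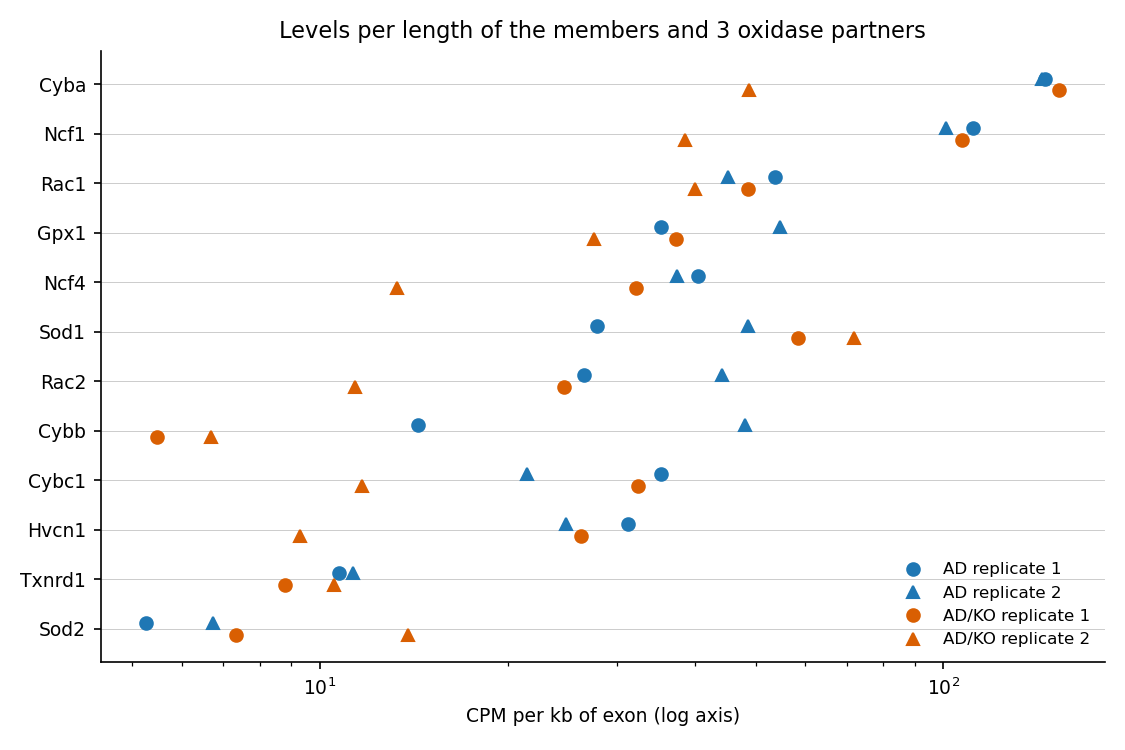
Level of the 9 members and of Rac1, Cybc1 and Hvcn1 in CPM per kb of exon (x axis, log scale), 1 symbol per library, ordered by the mean of the AD libraries. Cyba and Ncf1 stand highest in both AD libraries, and Cybb moves from the middle in AD to the bottom in AD/KO.

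Of the direct partners of the oxidase, Hvcn1, Cybc1 and Rac1 did not pass the test. Hvcn1, the proton channel that balances the charge moved by the oxidase, was at 93.6 and 74.3 CPM in AD and 78.6 and 27.8 CPM in AD/KO (-0.66, SE 0.55). Cybc1, the chaperone of the membrane core, was at 85.3 and 51.9 CPM in AD and 78.1 and 28.2 CPM in AD/KO (-0.37, SE 0.57). AD/KO replicate 2 was thus the lowest library for both, as for the microglia markers. Rac1, the Rac GTPase of most cell types, was at 227 and 190.2 CPM in AD and 205 and 169 CPM in AD/KO, for a log2 difference of -0.16 (SE 0.33).

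These 3 belong to a list of 18 other oxidase genes, of which 12 passed the filter on low counts. None of the 12 passed the test, 10 had a log2 fold change below 0 and 2 above, and the median was -0.55. Of all genes tested, 52.8% were below 0. The lowest was Arhgdib, a GTPase inhibitor of blood cells that can hold Rac2, at 86.1 and 169 CPM in AD and 83.6 and 37.6 CPM in AD/KO (-1.07, SE 0.55). Its order over the libraries was that of Rac2, with AD replicate 2 highest. The highest with a mean of at least 5 CPM was Noxo1, an organizer of a non-phagocyte oxidase, at 0.16. Per kb, Arhgdia (-0.14) and Prkcd (-0.47), the kinase that phosphorylates the organizer, stood highest. Nox1, Nox3, Nox4, Noxa1, Duox2 and Duoxa2 did not pass the filter, each with a mean under 1 CPM. Without AD/KO replicate 2 the list median was -0.02.

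**Figure D5:**
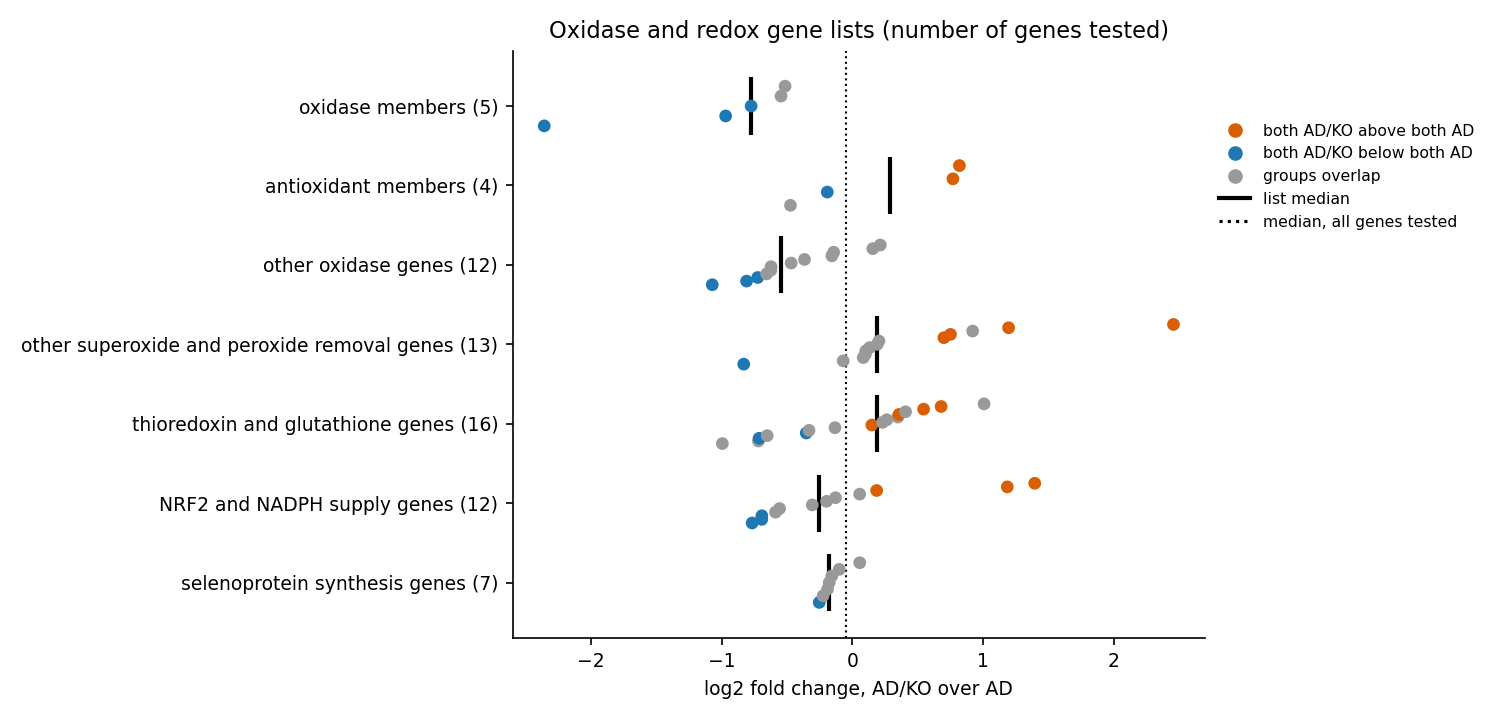
Log2 fold changes (AD/KO over AD, x axis) of the members and of 5 lists of related genes, with 1 point per gene tested and a bar at each list's median. The oxidase lists lie mostly left of the median of all genes (-0.05, dotted), the lists of peroxide removal and of thioredoxin and glutathione lie on both sides of it, and no gene shown passed the adjusted threshold.

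Of 15 other genes that remove superoxide and peroxide, 13 were tested and 0 passed, with 11 log2 fold changes above 0, 2 below and a median of 0.19. Of all genes tested, 52.8% were below 0. Prdx6, a peroxiredoxin that also repairs membrane lipids, was at 34.5 and 85.8 CPM in AD and 88.9 and 187 CPM in AD/KO, for a log2 difference of 1.196 (SE 0.61). Its order over the libraries was that of the astrocyte list and equally of the oligodendrocyte list. The part of either was not tested, and the share of all genes with this order was not counted. Prdx4, the peroxiredoxin of the secretory pathway, was at 11.8 and 11.4 CPM in AD and 8.18 and 4.83 CPM in AD/KO (-0.83, SE 0.44). Prdx5, the other gene with a high level per kb, had a value of -0.07. Sod3, the secreted dismutase, was named after its values were seen, as the 1 gene here with an unadjusted p under 0.05 (0.0136; adjusted p of 0.680, edgeR quasi-likelihood, Benjamini-Hochberg). It had 16 and 24 reads in AD and 82 and 190 reads in AD/KO, for a log2 difference of 2.46 (SE 0.65). Sod3 too had the order of the astrocyte and oligodendrocyte lists, whose part was not tested. Among all genes, 2.7% were higher at an unadjusted p under 0.05.

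All 16 thioredoxin and glutathione genes were tested and 0 passed, with 9 log2 fold changes above 0, 7 below and a median of 0.19. Slc7a11, which imports cystine for glutathione, was at 15.9 and 34.0 CPM in AD and 28.8 and 71.6 CPM in AD/KO (1.01, SE 0.60). Msrb1, a selenoprotein that repairs oxidized methionine, was at 15.4 and 46.9 CPM in AD and 15.1 and 16.1 CPM in AD/KO (-0.996, SE 0.58). AD replicate 2 alone stood apart for Msrb1, the other 3 libraries being level. Txnip, the thioredoxin inhibitor, and Txn2, the mitochondrial thioredoxin, had the highest levels per kb, with log2 fold changes of -0.33 and 0.68.

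The NRF2 regulator genes and the enzymes that supply NADPH, the fuel of both the oxidase and the reductases, gave 12 genes tested, 0 of which passed, with 4 values above 0, 8 below and a median of -0.25. Pgd, of the pentose phosphate pathway, was at 104 and 142 CPM in AD and 91.1 and 53.5 CPM in AD/KO (-0.77, SE 0.39). Me1, the malic enzyme of the cytosol, was at 7.40 and 17.8 CPM in AD and 18.2 and 39.3 CPM in AD/KO (1.19, SE 0.61). Like Prdx6, Me1 had the order of the astrocyte and oligodendrocyte lists over the libraries. The part of either list was not tested. Taldo1, a further enzyme of the pentose phosphate pathway with a high level per kb, had a value of -0.31. Both directions thus occurred among the NADPH-supplying enzymes.

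The genes whose profiles over the 4 libraries were nearest to those of Cybb and Sod1 were sought among 11306 others with a mean of at least 10 CPM, by the root mean square distance between centred log2 CPM. For Cybb these were Lgals3, which encodes galectin-3 (0.204), Tmem154 (0.223), Cxcr2 (0.251), Plbd1 (0.26) and Spn (0.266). Cxcr2 is one of the neutrophil markers used here. Of the 12 neutrophil markers tested it was the 1 with AD/KO lower without overlap, against 21.7% of all genes. The summed neutrophil list was lowest in AD replicate 1 (408 CPM, against 549 and 618 CPM in AD/KO), unlike Cybb. All 5 nearest genes of Cybb were highest in AD replicate 2, as Lgals3 at 32.6 CPM against 12.1 in AD replicate 1 and 5.16 and 4.88 in AD/KO. For Sod1 the nearest were Ndufa3 of respiratory complex I (0.0463), the ribosomal protein gene Rpl38 (0.0654), Gm11942 (0.0864), the brain creatine kinase Ckb (0.0894) and the ribosomal protein gene Rps15 (0.0959). Each of these 5 was lowest in AD replicate 1 and highest in AD/KO replicate 2. A distance over 4 libraries is a description only.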

How the data were processed

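For each of the 4 libraries the authors deposited raw read counts by gene symbol, in whole numbers. The submitters' processing notes name HISAT2, featureCounts and mm10 (GRCm38). The library kit marks strand, per the labels. Strand use in counting, multi-mapping reads and the annotation are not given in the sources used here. Each table also held 11 broken lines without a count, left out here. Gene IDs, coordinates and start-site windows came from RefSeq for GRCm38.p6. Exon lengths (merged exons of RefSeq-linked transcripts), overlaps and transcripts came from GENCODE M21.

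Counts of the 4 libraries were fitted with edgeR 4.0.16 in R 4.3.3: filterByExpr (minimum count 10, minimum total 15), TMM scaling, quasi-likelihood F-test without covariates and Benjamini-Hochberg adjustment over all genes at 0.05. An SE is the log2 fold change divided by the square root of F. Profiles used log2(CPM + 0.5). Near-identical transcripts were sought with BLAST 2.17.0 (at least 95% over 100 bases); besides those named, Cyba, Ncf1, Rac2 and Sod2 had matches of at most 193 bases in other genes. On simulated data with 200 genes changed by a log2 of 3, up or down, the fit recovered 78% of them, and 3.11% of its calls were false. The simulation held no differences in cell type between libraries, unlike the data. Its changes were also larger than that of any member, the largest being -2.36 for Cybb. The 78% therefore does not say how often differences of the members' size would be found. Alternatives were DESeq2 1.42.0, its size factors, scaling to the microglia list, other filters, a replicate block and each library left out.

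The members and lists were chosen with earlier results of these data known. The genes named were the members, Rac1, Cybc1 and Hvcn1, the 2 highest per kb and the extreme genes (mean of at least 5 CPM) of each list, and the 5 nearest profiles of Cybb and Sod1. Others are marked as chosen later. A further gene under the rule is not reported here.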

Additional observations from a re-analysis of the deposited data

How the results depend on the processing

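Of 90 values of members under alternatives, 86 kept their direction, 4 changed it and 29 were over 1.5 times larger or smaller than reported. With 2 libraries a group, no value here is firm. The number of genes past the adjusted threshold was 0 in the reported edgeR fit, 91 with DESeq2 as the test, 4333 with the replicate block and from 0 to 524 with a library left out, the last without AD replicate 2. The number of members past it was 1 with DESeq2 (Cybb, -2.31), 3 with the replicate block and 0 to 1 with a library left out. A fit with a library left out holds 1 library in a group and takes its spread from the other group alone. Its counts of genes past the threshold are therefore no evidence of a difference. The labels do not say that a replicate number marks a shared animal, litter or day. Across genes, the deviations from the group mean in AD and AD/KO libraries of the same replicate number correlated at 0.718. With 2 libraries a group, both replicate numbers give this same value, so that it is only 1 comparison. With the replicate block, Cybb (-2.13), Sod1 (0.81) and Sod2 (0.76) passed, where 20.2% of all genes did. The causes were not tested.

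With a library left out, log2 fold changes ran from -2.996 to -1.18 for Cybb, -1.51 to 0.096 for Cyba, -1.41 to 0.020 for Ncf1, -1.50 to -0.26 for Ncf4, -1.58 to -0.49 for Rac2, 0.41 to 1.29 for Sod1, 0.30 to 1.26 for Sod2, -0.77 to -0.05 for Gpx1 and -0.32 to -0.01 for Txnrd1. Medians ran from -1.51 to -0.26 for the oxidase members, 0.018 to 0.51 for the antioxidant members, -1.22 to -0.016 for other oxidase genes, 0.0041 to 0.44 for superoxide and peroxide removal, 0.048 to 0.31 for thioredoxin and glutathione, -0.39 to -0.09 for NRF2 and NADPH supply and -0.37 to 0.074 for selenoprotein synthesis, the last above 0 only without AD/KO replicate 2. Scaling to the microglia list moved the median of all genes from -0.05 to 0.84. On that scale Gpx1 was at 0.28 and Txnrd1 at 0.81, and medians were 1.26 for the antioxidant members, 0.040 for other oxidase genes, 1.17 for superoxide and peroxide removal, 1.19 for thioredoxin and glutathione, 0.60 for NRF2 and NADPH supply and 0.60 for selenoprotein synthesis.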

Other observations

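The following were chosen after their values were seen. Genes at least 1.5 times higher in AD replicate 2 than in each other library made up 3.83% of all 21439 genes tested. They were 2 of the 9 members (Cybb and Rac2) and 5 of the 60 related genes tested, namely Arhgdib, Txn1, Gsr, Msrb1 and G6pdx. Txn1 encodes the cytosolic thioredoxin, Gsr the glutathione reductase and G6pdx the first enzyme of the pentose phosphate pathway. Gsr was at 67.9 CPM in AD replicate 2 against 24.1 in AD replicate 1 and 26.6 and 32.0 in AD/KO replicates 1 and 2. Txn1 was at 24.7 CPM against 10.2, 10.2 and 11.02. The same library had the highest neutrophil markers, whose part in these levels was not tested.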
